A study of Homo sapiens with 4 samples.

Results

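The clustered replication-dependent histone genes encode the H1, H2A, H2B, H3 and H4 proteins that package newly made DNA. They were taken as every protein-coding gene named H1-1 to H1-5 or named H2AC, H2BC, H3C or H4C with a number. Of 69 such genes, 65 had a row in the table of 58233 gene identifiers, and H2AC18, H2AC19, H3C2 and H3C3 were not analysed here. The 65 members were 5 H1, 15 H2A, 19 H2B, 11 H3 and 15 H4 genes. On GRCh38, 52 lie in the large cluster at 6p22, 9 at 1q21, 2 at 1q42, 1 (H4C16) at 12p12 and 1 (H2BC12L) at 21q22.

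The study treated the human pancreatic cancer cell lines MIA PaCa-2 and PANC-1 for 24 h with cannabichromene (CBC), a cannabinoid of the hemp plant, or with PBS. CBC was given at 35 µM to the MIA PaCa-2 and at 30 µM to the PANC-1 line, so the lines differ in dose as well as in origin. The records name PBS as the control, while the study's methods dissolve CBC in acetonitrile and speak of a vehicle. There was 1 library per condition and 4 in all, with no replicate within a line. Differences within a line are therefore values of 2 libraries with no test, and the single test treats the lines as the repeats.

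Replication-dependent histone genes are transcribed mainly in S phase, when the cell copies its DNA. Their mature mRNAs are the known exception among messenger RNAs in lacking a poly(A) tail: they end shortly after a conserved stem-loop that is bound by SLBP. Some of these genes also have longer or spliced transcripts that end in a poly(A) tail. The libraries were made from poly(A)-selected RNA, so the values below are of the histone transcripts that this selection captured, and less RNA cannot be told apart from less capture. In these bulk samples fewer cells in S phase and less histone RNA per cell cannot be told apart either.

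The stem-loop was searched for in the genome within 100 bases after each stop codon. The pattern was a stem of 6 base pairs, with G-T pairs allowed and at most 1 mismatch, around a loop of 4 bases. Some bases were fixed: GG at the start, CC at the end, T-A as the innermost pair and a T in the loop. This pattern was found in 64 of the 65 members, the exception being H2BC12L, and in 173 of 20033 protein-coding genes (0.864%). That share is of this pattern and not of any hairpin. The members shared 10 different cores of 16 bases. The most frequent core, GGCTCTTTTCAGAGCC, stood in 36 members of the H1, H2A, H2B and H3 classes, and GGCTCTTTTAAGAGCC in 8. The H4 genes had cores of their own, with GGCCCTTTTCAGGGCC in 10 of 15. The runs below, 1 or more for each class, are 5′ to 3′ on the gene's strand (GRCh38), with the core in capitals. H1-5, H2AC6, H2BC14 and H3C11 are shown because they share a core and had different values in the treated cells. H2BC12 and H4C8 share their cores with members not printed, and the cores of H2AC11, H3C6 and H4C13 are found in no other member.
H1-5 (chr6:27866792-27866817, minus strand): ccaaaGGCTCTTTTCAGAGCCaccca
H2AC6 (chr6:26124664-26124689, plus strand): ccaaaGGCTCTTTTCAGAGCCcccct
H2AC11 (chr6:27133510-27133535, plus strand): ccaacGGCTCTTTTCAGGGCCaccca
H2BC12 (chr6:27146361-27146386, minus strand): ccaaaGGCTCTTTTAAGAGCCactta
H2BC14 (chr6:27815464-27815489, plus strand): ccaaaGGCTCTTTTCAGAGCCgtcca
H3C6 (chr6:26225591-26225616, plus strand): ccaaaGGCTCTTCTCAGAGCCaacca
H3C11 (chr6:27871845-27871870, minus strand): caaaaGGCTCTTTTCAGAGCCcctca
H4C8 (chr6:26285126-26285151, minus strand): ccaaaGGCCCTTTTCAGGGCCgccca
H4C13 (chr6:27873148-27873173, minus strand): tcaaaGGCCCTTCTCAGGGCCaccca

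The annotated transcripts divided the members. In 18 of them GENCODE lists a transcript with more than 1 exon or with a 3′ UTR over 200 bases, called here a long or spliced 3′ end. These were 3 H2A, 8 H2B, 3 H3 and 4 H4 genes. The other 47, including all 5 H1 genes, have short 3′ ends only. A further exon counted wherever it lay, so H3C12 is in the long or spliced group although its longest 3′ UTR is 67 bases. The grouping says which transcripts are annotated, not which were made in these cells. The grouping also depends on the annotation, and the groups used below are those of GENCODE. RefSeq gives H2BC12, which is short in GENCODE, a span of 8566 bases against 495, and H3C4 2510 against 503. Of the long or spliced group only H2BC4, H2BC5, H2BC18, H2BC21, H3C6 and H4C15 have a long span in RefSeq. The others are short there, such as H2AC6 (519 bases), H2AC25 (510) and H4C8 (409).

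Counts per library were 21742775 to 27903667. Members took the largest share in the MIA PaCa-2 PBS library, 0.0763% (95% Clopper-Pearson interval 0.0751 to 0.0775), and the smallest in the PANC-1 CBC library, 0.0274% (0.0268 to 0.028). The carcinoma keratins KRT8, KRT18 and KRT19 had at least 3976 counts in every library. KRT7 had 2 and 52 counts with PBS and with CBC in MIA PaCa-2 cells and 49 and 58 in PANC-1 cells, and MSLN at most 20 in any library. EPCAM and CDH1 had at most 1 count in MIA PaCa-2 libraries. The defining markers of leukocytes (PTPRC, CD3E), liver (ALB), islet (INS) and acinar cells (PRSS1) had at most 1 count in any library. Of the endothelial markers PECAM1 was at 0, and CDH5 had 49 and 7 counts in the MIA PaCa-2 PBS and CBC libraries.

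Most of the clustered histone genes that could be compared were lower with CBC. A member or gene was compared in a line if it had at least 1 CPM (counts scaled to a common library size, with TMM-scaled totals) in 1 of the line's 2 libraries, and it was called when it differed by more than 2-fold. In MIA PaCa-2 cells 46 members could be compared, of which 34 were lower and 2 higher, where 8.97% of all compared genes were lower and 11.5% higher. In PANC-1 cells 42 could be compared, of which 26 were lower and 0 higher, where 7.03% and 7.71% of all compared genes were lower and higher. The median log2 fold change of the members was -1.36 in MIA PaCa-2 and -1.29 in PANC-1 cells, against -0.01 and 0.02 over all compared genes.

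The filter itself fixes the direction of some members. A gene that reaches 1 CPM only with PBS has to be below its PBS level with CBC, and one that reaches it only with CBC has to be above. The filter does not fix whether the difference is past 2-fold. In MIA PaCa-2 cells 1 member entered through PBS only and 2 through CBC only. These 2, H3C6 and H4C14, were the only members called higher. In PANC-1 cells 12 entered through PBS only and 1 through CBC only. Of members with at least 1 CPM in both libraries, 33 of 43 were lower in MIA PaCa-2 cells, where that rule called 7.49% of all genes lower. In PANC-1 cells 14 of 29 were lower, against 5.66% of all genes. The medians of these members were -1.41 and -0.93. Of the 65 members, 18 passed in neither line, 9 of them with 0 counts in every library. The highest count among the 18 was 20.

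**Figure D1:**
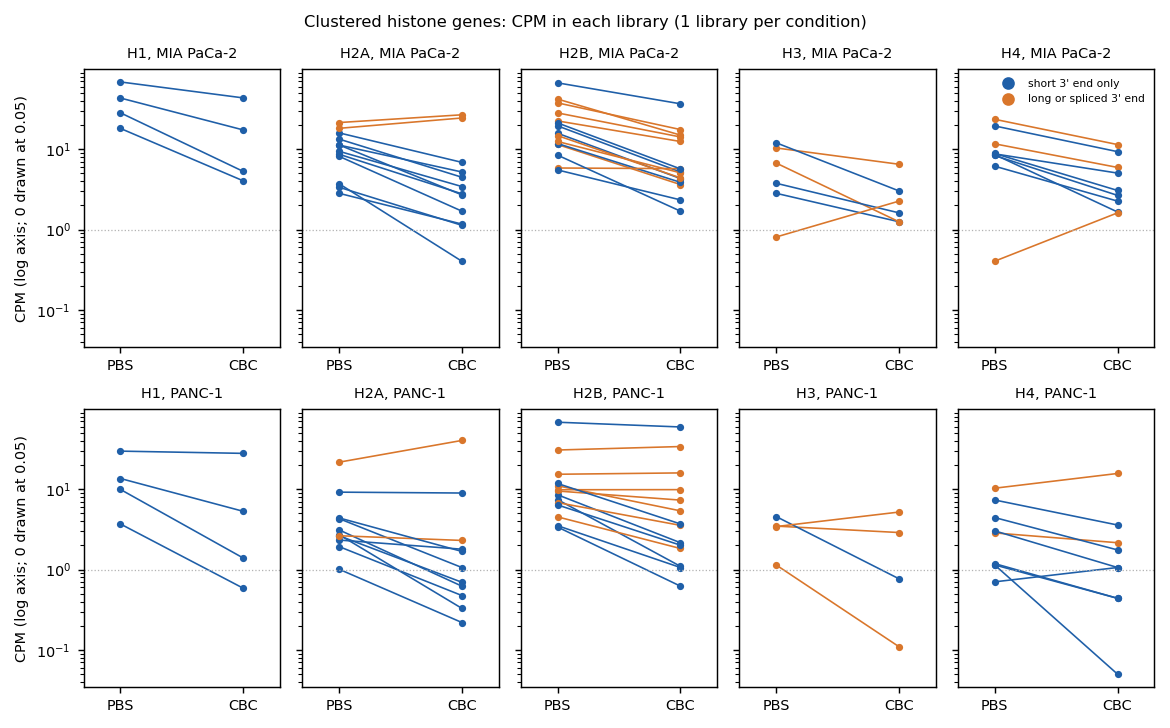
CPM (log axis, with 0 drawn at 0.05) of each compared member with PBS and with CBC, a line per gene, by histone class in columns and cell line in rows; blue, short 3′ ends only, orange, a long or spliced 3′ end, and the dotted line is 1 CPM. Most blue lines slope down in both lines, while in PANC-1 cells 6 of 14 orange genes are above their PBS level.

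The 41 members compared in both lines were mostly on the same side of 0. Of these, 34 were below 0 in both lines and 24 were lower by more than 2-fold in both. There were 7 lower in MIA PaCa-2 only and 2 in PANC-1 only, a split by threshold that was not tested. None was past 2-fold in opposite directions. Across the 41 genes the log2 fold changes of the lines had a Pearson r of 0.74 and a Spearman rho of 0.79, as a description only, since genes of a line share its libraries and low counts.

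In the test across both lines, 12 of 48 tested members fell and 0 rose (edgeR quasi-likelihood, adjusted p under 0.05), where 2.45% of all genes fell and 2.26% rose. At an unadjusted p under 0.05 there were 29 of the 48 members, all of them lower, where 20.9% of all genes passed in either direction and 10.4% were lower. DESeq2 called 15 lower and 0 higher. The 12 were H1-3, H1-4, H1-5, H2AC12, H2AC16, H2BC3, H2BC7, H2BC14, H2BC17, H2BC18, H3C11 and H3C12. Without cell line as a block the same test called 0 of them. The p-values measure how alike the responses of the lines were and not the spread between cultures.

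The linker histones bind DNA where it enters and leaves the nucleosome. Here and below, a member's level is given first with PBS and then with CBC. H1-5 was at 28.4 CPM without and 5.30 CPM with CBC in the MIA PaCa-2 line, and at 9.94 and 1.39 CPM in the PANC-1 line. Both treated libraries were under both controls, and the MIA PaCa-2 log2 fold change, -2.41, was the most negative among members with at least 10 CPM. The gene is a single exon at chr6:27866792-27867588 on the minus strand. It fell by 2.61 ± 0.35 (SE) on the log2 scale across both lines (edgeR quasi-likelihood, adjusted p = 0.0138). H1-3 was at 18.2 and 4.04 CPM (MIA PaCa-2 libraries) and 3.69 and 0.586 CPM (PANC-1 libraries). Its fall across both lines was -2.36 ± 0.41 (adjusted p = 0.0237, edgeR). H1-4 fell less, from 43.4 to 17.4 CPM in the MIA PaCa-2 line and from 13.6 to 5.31 CPM in the PANC-1 line (log2 fold change -1.33 ± 0.27, adjusted p = 0.0373, edgeR).

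H1-2 was the most abundant H1 gene in all 4 libraries and differed least. It was at 68.8 then 43.5 CPM in the MIA PaCa-2 libraries and 29.8 then 27.9 CPM in those of PANC-1. Its log2 fold change was -0.66 in MIA PaCa-2 and -0.09 in PANC-1 cells, where the counting interval of the ratio, -0.24 to 0.06, included 0. Across both lines H1-2 did not pass (adjusted p = 0.435, edgeR). H1-2 held 677 of the 1296 H1 counts in the PANC-1 PBS library and 763 of the 962 in the PANC-1 CBC library. The summed H1 counts there had a log2 ratio of -0.70, between the value of H1-2 and those of H1-3, H1-4 and H1-5. H1-1 had 1 count in all 4 libraries together.

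H2A and H2B form the outer dimers of the nucleosome. In the H2A class the genes were split. All 10 short-ended H2A genes compared in MIA PaCa-2 cells were lower past 2-fold, and 7 of 9 in PANC-1 cells. In PANC-1 cells 5 of the 7 reached 1 CPM only with PBS, which fixed their direction but not the size of the fall. Of the 4 with at least 1 CPM in both libraries 2 were lower. H2AC16 was at 11.3 CPM without and 2.71 CPM with CBC in the MIA PaCa-2 line, and at 2.73 and 0.329 CPM in the PANC-1 line. It fell by 2.44 ± 0.48 on the log2 scale across both lines (adjusted p = 0.0343, edgeR). H2AC12 was at 8.18 and 1.70 CPM (MIA PaCa-2 libraries) and 3.12 and 0.622 CPM (PANC-1 libraries), and also fell (-2.28 ± 0.46, adjusted p = 0.0364, edgeR). H2AC20, H2AC8 and H2AC14 were lower past 2-fold in each line, with log2 fold changes from -1.10 to -1.94, but did not pass across both lines (adjusted p from 0.0613 to 0.099, edgeR). For H2AC20 DESeq2 gave an adjusted p of 0.0361, under the threshold.

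Of the H2A genes with long annotated ends 2 could be compared, and their difference from the short-ended genes was not tested. H2AC6 was at 21.5 then 26.8 CPM in the MIA PaCa-2 libraries and 21.7 then 40.4 CPM in those of PANC-1. Both treated libraries were above both controls, by a log2 fold change of 0.32 and 0.90, the highest value among PANC-1 members with at least 10 CPM. The gene spans chr6:26124145-26139116, and its annotated 3′ UTR reaches 1187 bases. It did not pass across both lines (0.62 ± 0.27, adjusted p = 0.243, edgeR). H2AC25, at 1q42, was at 18.2 then 24.5 CPM in the MIA PaCa-2 libraries, the highest log2 fold change in that line (0.43) among members with at least 10 CPM. In PANC-1 cells it was at 2.64 and 2.31 CPM, and its counting interval there was -0.73 to 0.34. The core of H2AC6 and H2AC25 is the one found in H1-5 and H2AC16.

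H2AC11, short-ended in the annotation, has a core found in no other member. It was lower in MIA PaCa-2 cells, at 16 and 6.87 CPM, and level in PANC-1 cells, at 9.19 and 8.97 CPM. Its log2 fold change was -1.21 in the first and -0.04 in the second, which turned to above 0 in PANC-1 cells with library totals as scale.

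Among H2B genes 11 of 15 were lower in the MIA PaCa-2 line and 8 of 14 in the PANC-1 line, or 7 of 13 there with at least 1 CPM in both libraries. H2BC14 was at 19.6 CPM without and 5.22 CPM with CBC in the MIA PaCa-2 line, and at 7.43 and 1.10 CPM in the PANC-1 line. It fell by 2.29 ± 0.40 on the log2 scale across both lines (adjusted p = 0.0252, edgeR). By the same edgeR test H2BC3 fell (-2.36 ± 0.46, adjusted p = 0.0327), as did H2BC17 (-1.92 ± 0.37, adjusted p = 0.0319) and H2BC7 (-1.78 ± 0.35, adjusted p = 0.0351). All 4 are short-ended and were lower past 2-fold in each line. H2BC8 had the most negative log2 fold change in PANC-1 cells among members with at least 10 CPM, -1.65, at 11.8 and 3.70 CPM. In the other line it was at 5.53 and 2.34 CPM (adjusted p = 0.0862 across both lines, edgeR).

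H2BC18 was the only long-ended H2B gene that fell across both lines, at 42.1 then 15 CPM in the MIA PaCa-2 libraries and 4.53 then 1.83 CPM in those of PANC-1 (-1.40 ± 0.30, adjusted p = 0.0436, edgeR). It overlaps FCGR1A on the other strand over 177 exonic bases, and 36.7% of its 100-base windows occur in other genes, so its count is uncertain. H2BC15, also long-ended, was at 22.5 then 12.5 CPM in the MIA PaCa-2 libraries (-0.85) and 11 then 5.38 CPM in those of PANC-1 (-1.03), past 2-fold in the second line.

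Other H2B genes were below 0 in MIA PaCa-2 and near 0 in PANC-1 cells. H2BC4 was at 14.8 then 4.41 CPM in the MIA PaCa-2 libraries and 9.85 then 9.88 CPM in those of PANC-1. Its log2 fold change was -1.73 and 0.00, its sign in PANC-1 cells depending on the scale. H2BC4 overlaps HFE and a further gene on the opposite strand over 890 bases. H2BC5 was at 37.8 CPM without and 17.6 CPM with CBC in the MIA PaCa-2 line, and at 30.7 and 34.0 CPM in the PANC-1 line. H2BC21, at 1q21 and annotated only with a 3′ UTR of 1801 bases, was at 28.3 and 14.2 CPM, just inside 2-fold, and at 15.3 and 16 CPM. Whether the lines differ at these genes could not be tested.

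H2BC12 had the highest level per kb of annotated exon in every library. It was at 67.0 and 36.8 CPM (MIA PaCa-2 libraries) and 68.2 and 59.5 CPM (PANC-1 libraries). Its log2 fold changes of -0.86 and -0.20 were the least negative of the short-ended H2B genes. The level per kb is computed on the 495 bases of GENCODE and would be lower on the longer RefSeq span.

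H3 and H4 form the core tetramer. H3C11 was at 12.1 then 3.03 CPM in the MIA PaCa-2 libraries and 4.57 then 0.768 CPM in those of PANC-1. It fell by 2.24 ± 0.43 on the log2 scale (adjusted p = 0.0319, edgeR). H3C12 fell from 6.74 to 1.25 CPM and from 1.14 to 0.110 CPM (-2.70 ± 0.57, adjusted p = 0.0407, edgeR). The PANC-1 CBC value of H3C12 is 3 counts, and 346 of its exonic bases overlap H2AC17 on the same strand. H3C12 is in the long or spliced group for a second exon only, its longest 3′ UTR being 67 bases.

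H3C6 went the other way in both lines. It was at 0.809 CPM without and 2.26 CPM with CBC in the MIA PaCa-2 line, and at 3.43 and 5.20 CPM in the PANC-1 line. The log2 fold changes were 1.40 and 0.59, and the counting intervals, 0.70 to 2.34 and 0.19 to 1.02, lay above 0, but H3C6 did not pass across both lines (adjusted p = 0.292, edgeR). Its annotated 3′ UTR reaches 1908 bases, and its core is found in no other member. H3C10 was at 10.4 and 6.51 CPM and at 3.47 and 2.89 CPM. H3C1 and H3C13 were lower past 2-fold in MIA PaCa-2 cells, at 2.83 and 1.25 CPM and at 3.78 and 1.62 CPM, and were under 1 CPM in PANC-1 cells.

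No H4 gene passed across both lines (edgeR quasi-likelihood, 0 of 11 tested, 6 at an unadjusted p under 0.05 where 20.9% of all genes were), and DESeq2 called 1. Most were nonetheless lower in value: 6 of 9 compared were past 2-fold in each line. In PANC-1 cells 3 of these 6 reached 1 CPM only with PBS, and of the 5 past 1 CPM in both libraries 3 were lower. H4C5 was at 19.5 and 9.34 CPM (MIA PaCa-2 libraries) and 7.34 and 3.59 CPM (PANC-1 libraries). H4C1 and H4C2 were lower past 2-fold in both lines, with log2 fold changes from -1.28 to -1.62. H4C3 was at 8.77 and 5.05 CPM and at 4.44 and 1.76 CPM. H4C13, chosen after its values were seen, had 191 and 41 counts in MIA PaCa-2 cells and 26 and 0 counts in PANC-1 cells. Against a floor of 3 counts it was at least 10.4-fold lower in PANC-1 cells. With it at that bound the PANC-1 median of the members stayed at -1.29.

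H4C8 was again split between the lines. It was at 23.6 then 11.4 CPM in the MIA PaCa-2 libraries and 10.3 then 15.7 CPM in those of PANC-1. Its log2 fold change was -1.04 in MIA PaCa-2 cells, or -0.98 with library totals as scale, and 0.61 in PANC-1 cells. It has an annotated 3′ UTR of up to 1712 bases and overlaps a gene on the opposite strand over 287 bases. H4C16, at 12p12, was at 11.7 and 5.94 CPM and at 2.86 and 2.16 CPM. H4C14, named because it and H3C6 were the only members higher past 2-fold, had 9 and 40 counts in MIA PaCa-2 cells. Of its windows, 94.9% occur also in H4C15, so its count is uncertain.

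**Figure D2:**
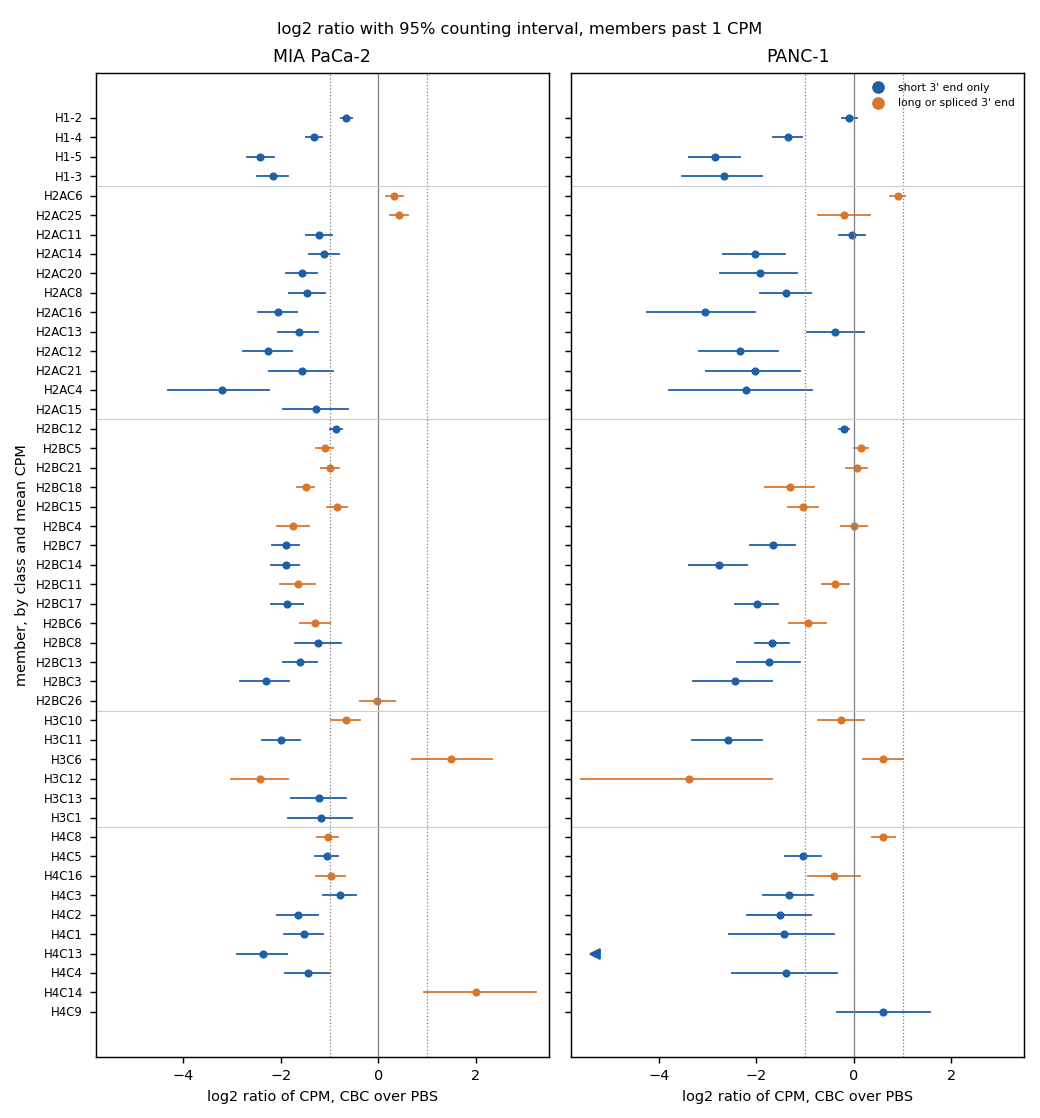
Log2 ratio of CPM, CBC over PBS (no prior count), for each member compared in MIA PaCa-2 (left) or PANC-1 (right) cells, with the 95% counting interval as a bar, ordered by class and mean CPM; blue, short 3′ ends, orange, long or spliced, dotted lines mark 2-fold, and the arrowhead is H4C13 at 0 counts. H2AC6, H2BC5, H3C6 and H4C8 have intervals above 0 in PANC-1 cells, that of H2BC5 starting at 0.000489 and depending on the scale. H1-2 and H2BC12 are nearer to 0 than other members of their class with short 3′ ends.

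By annotated 3′ end, 27 of 30 compared short-ended members were lower in the MIA PaCa-2 line and 23 of 28 in the PANC-1 line, with medians of -1.53 and -1.65. The PANC-1 values contain 11 short-ended members that reached 1 CPM only with PBS. With at least 1 CPM in both libraries, 26 of 29 short-ended members were lower in MIA PaCa-2 and 12 of 16 in PANC-1 cells, with medians of -1.51 and -1.39. The short-ended exceptions were H1-2, H2BC12 and H4C3 in the first line and H1-2, H2BC12, H2AC11, H2AC13 and H4C9 in the second, the latter pair chosen after their values were seen. Of members with a long or spliced 3′ end, 7 of 16 were lower in the MIA PaCa-2 line and 3 of 14 in the PANC-1 line, with medians of -0.98 and -0.22. With at least 1 CPM in both libraries these were 7 of 14 and 2 of 13, with medians of -1.01 and -0.19. Over all compared genes 8.97% were lower in MIA PaCa-2 and 7.03% in PANC-1 cells. With at least 1 CPM in both libraries these shares were 7.49% and 5.66%. Across both lines 10 of 32 short-ended and 2 of 16 long-ended members fell (edgeR quasi-likelihood), where 2.45% of all genes fell. The 2 long-ended members were H2BC18 and H3C12. The difference between the groups was not tested.

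The counts of each class were also summed, so that members that share reads count together. The sum over all members was 746 CPM with PBS and 351 CPM with CBC for the MIA PaCa-2 line, a log2 ratio of -1.09 (counting interval -1.13 to -1.05). In PANC-1 cells it was 357 and 280 CPM, a log2 ratio of -0.35 (-0.40 to -0.31). Every class sum was lower in MIA PaCa-2 cells, with log2 ratios of -1.18 for H1, -0.65 for H2A, -1.23 for H2B, -1.19 for H3 and -1.12 for H4. In PANC-1 cells they were -0.70 for H1, 0.07 for H2A, -0.41 for H2B, -0.48 for H3 and -0.27 for H4, and the interval of H2A, -0.04 to 0.18, included 0. The sum over all members was nearer to 0 than their median in both lines. Of members with many counts, H2BC12 and H1-2 were below 0 by less than 1 on the log2 scale in each line, H2AC6 was above 0 in both, and H2BC5 was at -1.10 in MIA PaCa-2 and 0.14 in PANC-1 cells.

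Within the sums the annotated ends separated. Short-ended members together were at 477 then 192 CPM in the MIA PaCa-2 libraries (-1.31) and 223 then 132 CPM in those of PANC-1 (-0.76). Long-ended members were at 269 then 159 CPM in the MIA PaCa-2 libraries (-0.76) and 134 then 148 CPM in those of PANC-1 (0.14, counting interval 0.07 to 0.21). Their part of all member counts was 36.1% with PBS and 45.3% with CBC in MIA PaCa-2 cells, and 37.6% and 52.9% in PANC-1 cells. In the H2A class alone, 3 long-ended genes held 31.0% of the counts with PBS and 63.2% with CBC in MIA PaCa-2 cells, and 43.2% and 72.4% in PANC-1 cells. H2B differed least by this split in MIA PaCa-2 cells, where short-ended genes had a log2 ratio of -1.32 and long-ended genes of -1.17.

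**Figure D3:**
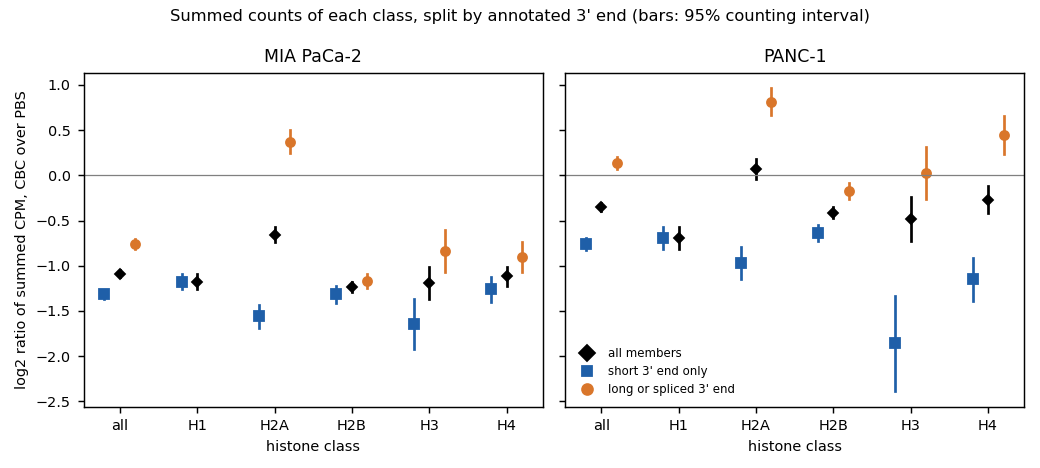
Log2 ratio of summed CPM, CBC over PBS, for all members and each histone class (black diamonds), split into members with short 3′ ends (blue squares) and with a long or spliced 3′ end (orange circles), with 95% counting intervals as bars. The long-ended H2A sum is above 0 in both lines, at 0.37 and 0.81, and the long-ended H4 sum is at -0.90 in MIA PaCa-2 and 0.45 in PANC-1 cells.

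Reads that fit several members can be lost or misassigned in counting. Of the 65 members, 42 shared no 100-base window with another gene, and 12 shared more than 50% of their windows. Among these were H3C14, H3C15 and H4C15, which had 0 to 8 counts in every library, and H2AC13 and H2AC14, which were compared. H2AC7 and H3C4, with at most 1 count, overlap another annotated gene on the same strand.

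Many H2A and H2B genes stand head to head and share a promoter. There were 12 such pairs with starts within 500 bases on opposite strands. The CCAAT box, the octamer ATTTGCAT (bound by POU2F1) and the TATA box are known elements of histone promoters. In the 59 members with a RefSeq promoter (250 bases before to 50 after the start), CCAAT was found on either strand in 83.1%, against 35.7% of all 27305 promoters of the same length. ATTTGCAT was found in 44.1% against 1.80%, and TATAAA in 66.1% against 12%. The octamer was in 11 of 14 H2A and 14 of 18 H2B promoters and in 0 H1 and 0 H4 promoters. The stretches between the starts of 2 pairs are printed on the strand of the H2A gene (GRCh38.p14, RefSeq), with CCAAT, ATTTGCAT and TATAAA of either strand in capitals. They are shown because the genes of the first pair had values apart and those of the second both were lower.
H2AC6 and H2BC4 (chr6:26123927-26124171, plus strand): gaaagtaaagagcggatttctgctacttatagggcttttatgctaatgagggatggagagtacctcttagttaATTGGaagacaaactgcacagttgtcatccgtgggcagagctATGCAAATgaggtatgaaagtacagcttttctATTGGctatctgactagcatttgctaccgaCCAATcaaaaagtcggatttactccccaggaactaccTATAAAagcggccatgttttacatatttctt
H2AC14 and H2BC14 (chr6:27814778-27815021, minus strand): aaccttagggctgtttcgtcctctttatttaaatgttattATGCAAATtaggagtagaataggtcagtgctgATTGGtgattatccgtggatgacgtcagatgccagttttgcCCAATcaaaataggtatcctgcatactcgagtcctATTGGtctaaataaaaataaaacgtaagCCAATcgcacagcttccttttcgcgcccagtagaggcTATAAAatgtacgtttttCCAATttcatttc

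The genes of a pair did not always have like values. Of 9 pairs compared in MIA PaCa-2 cells, the log2 fold changes of the partners lay 0.03 to 2.05 apart, with a median of 0.45. The largest distance was that of H2AC6 (0.32) and H2BC4 (-1.73). Of 7 pairs compared in PANC-1 cells they lay 0.31 to 1.99 apart, with a median of 0.89. There the largest distance was that of H2AC12 (-2.19) and H2BC12 (-0.20), and next H2AC20 (-1.81) and H2BC21 (0.06). H2AC14 and H2BC14 were lower in both lines, at -1.10 and -1.89 in MIA PaCa-2 and at -1.94 and -2.67 in PANC-1 cells.

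Other genes of the histone supply were looked up from lists. Replication-independent histone genes mostly carry poly(A) tails, and many are made throughout the cycle, which need not hold for H2AX, CENPA or each other gene of the list. Of 11 tested, 2 fell across both lines, where 2.45% of all genes fell. H2AX, whose phosphorylated form marks DNA breaks, and CENPA, the centromeric H3, fell. H2AX was at 4410 and 1882 counts and at 3816 and 1497 counts (-1.49, adjusted p = 0.0144, edgeR). H2AZ1 (-0.87), H3-3A (-0.78) and H3-3B (-0.11) did not pass (adjusted p from 0.0552 to 0.795, edgeR).

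Of 17 genes for transcription, processing and decay of histone mRNA, 0 passed across both lines (edgeR quasi-likelihood, 4 at an unadjusted p under 0.05, or 23.5% against 20.9% of all genes), and DESeq2 called 2. SLBP, the stem-loop binding protein, was at 2454 and 1806 counts in the MIA PaCa-2 libraries and at 2217 and 1555 counts in those of PANC-1 (-0.68). NPAT, the coactivator of histone genes, had a log2 fold change of -0.47, and CASP8AP2 of -0.85. The list was mixed in direction, with 10 of the 17 genes below 0 across both lines. None was lower past 2-fold in either line, while ZNF473 and HINFP were higher past 2-fold in MIA PaCa-2 cells only. Across both lines these 2 genes were at 0.77 and 0.71 and did not pass (adjusted p = 0.152 and 0.212, edgeR). Of 23 histone chaperone and acetylation genes, 8 fell and 0 rose, where 2.45% of all genes fell and 2.26% rose. ASF1B, which hands over H3 and H4, fell (log2 fold change -1.79, adjusted p = 0.0123, edgeR), as did CHAF1A (-1.69) and CHAF1B (-1.55) of the chromatin assembly factor. NASP, a store of H3 and H4 (-0.99), and MCM2, TONSL, HAT1 and RBBP4 also fell.

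Of 23 genes of S phase entry and DNA synthesis, 18 fell and 0 rose across both lines (edgeR quasi-likelihood). Over all genes 2.45% fell and 2.26% rose. The median log2 fold change of the 23 genes was -1.56, against -1.22 over the 48 tested members. E2F1, a transcription factor of S phase genes, had 2035 and 578 counts in MIA PaCa-2 cells and 1953 and 431 counts in PANC-1 cells (-2.20, adjusted p = 0.00841, edgeR). The others that fell were CCNE2, CCNA2, CDK2, E2F2, PCNA, MCM3, MCM4, MCM5, MCM6, MCM7, CDC45, GINS2, POLA1, POLE, RRM2, TYMS and MKI67. Their part in the histone values was not tested.

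**Figure D4:**
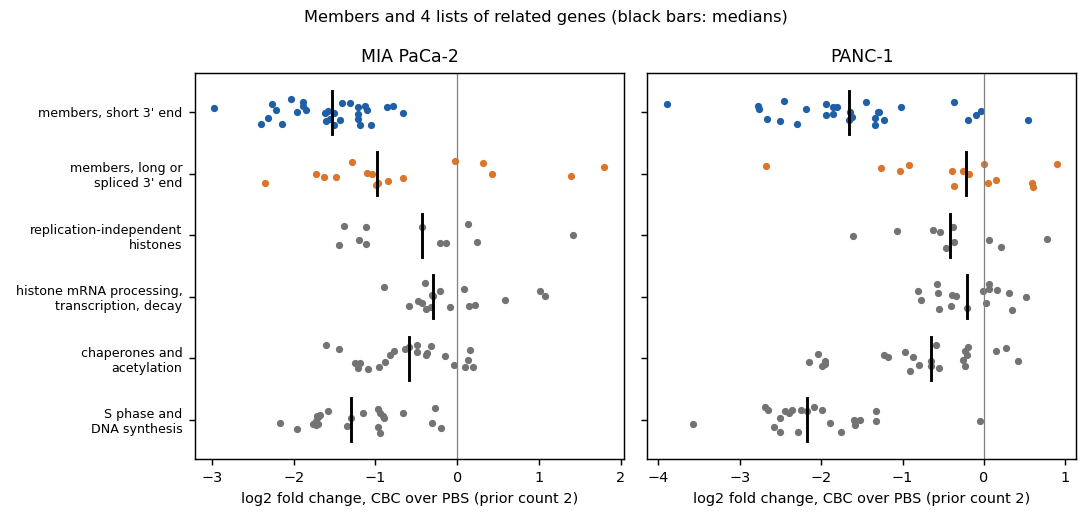
Log2 fold change, CBC over PBS, of compared members with short and with long or spliced 3′ ends and of 4 lists of related genes, a point per gene, in MIA PaCa-2 (left) and PANC-1 (right) cells; black bars are medians. The short-ended members (-1.53 and -1.65) and the genes of S phase and DNA synthesis (-1.30 and -2.17) have the lowest medians plotted, although the -1.65 contains 11 of 28 members that reached 1 CPM only with PBS and is -1.39 over members past 1 CPM in both libraries, and the histone mRNA processing list has medians of -0.29 and -0.21.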

How the data were processed

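Messenger RNA was measured in 4 libraries, 1 per cell line and treatment, so the labels give no replicate within a line. The authors selected poly(A) RNA, prepared directional paired-end libraries, removed adapters with cutadapt 2.7 and used STAR (GRCh38) for alignment and HTSeq for counting on Ensembl genes. The counting mode and strand setting are not given in the sources used here. The table they deposited has unnormalised counts per gene. A second deposited value per library, a CPM signal on TMM-scaled library sizes, was used only as an alternative.

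Gene symbols, positions and 3' ends came from GENCODE release 44 (GRCh38), and promoters and gene spans from RefSeq (GRCh38.p14). Of 58233 identifiers, 57392 matched a symbol, 82 symbols matched the histone names and 13 of these were pseudogenes. The members and the lists of related genes were chosen with earlier results of these data known.

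Log2 fold changes of CBC over PBS within a line used edgeR 4.0.16 (R 4.3.3) with TMM scaling over the 4 libraries and a prior count of 2, for genes reaching 1 CPM in either library of that line. A gene past 2-fold (a log2 fold change beyond 1 in either direction) was called lower or higher. Intervals of count ratios are exact binomial (Clopper-Pearson, 95%, scipy 1.17.1). They and the floor of 3 counts cover counting error only. The test across lines was edgeR's quasi-likelihood test with cell line as a block and Benjamini-Hochberg adjustment over 16381 genes, with 1 residual degree of freedom. The deviations of the paired libraries correlated at 0.92 across genes, the pairing being by cell line. The fit was tested on simulated data. DESeq2 1.42.0 was an alternative. Named members are H1-1 to H1-5, the 6 members of each other class with the highest mean CPM, members called across both lines, the largest fall and rise in each line among members with at least 10 CPM, and any past 2-fold in opposite directions. Other members named are said to have been chosen after their values were seen. The result of 1 gene of the lists of related genes is not reported here.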

Additional observations from a re-analysis of the deposited data

Results flagged for a closer look

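Within these results 2 members and 2 sums had opposite signs in the 2 lines, each with a counting interval on its own side of 0. With 1 library per condition the difference between lines was not tested, and the lines also differed in dose. For H4C8 the log2 fold changes were -1.04 (MIA PaCa-2) and 0.61 (PANC-1), a distance of 1.65. H2BC5 had -1.10 and 0.14, a distance of 1.24. Its PANC-1 counting interval was 0.000489 to 0.287. TMM within each line shifted PANC-1 values by -0.029 and DESeq2 size factors by -0.017, so whether this interval clears 0 depends on the scale. The summed counts of all members with a long or spliced 3′ end had log2 ratios of -0.76 and 0.14, a distance of 0.90. The H4 members with such an end, in which H4C8 holds most counts, had -0.90 and 0.45, a distance of 1.35.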

How the results depend on the processing

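In MIA PaCa-2 cells 34 members were lower, and 22 when the whole counting interval had to lie past 2-fold. The 2 higher members there became 4 without a filter and 0 with at least 1 CPM in both libraries, with at least 5 CPM in 1 library, with the deposited CPM as log2(CPM + 1) and by the counting interval. In PANC-1 cells the 26 lower members became 14 with at least 1 CPM in both libraries, 8 with at least 5 CPM, 16 with the deposited CPM and 17 by the counting interval, and the 0 higher became 3 without a filter. The 2 stricter filters leave 29 and 19 members to compare. Across both lines the 12 that fell became 0 with no replicate block and 22 without a filter; the cause was not tested.

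The class sums also moved when single members or groups of members were left out. The H1 log2 ratio without H1-2 was -1.75 in MIA PaCa-2 and -1.90 in PANC-1 cells, and that of H2A without H2AC6 was -0.97 and -0.89. Without H2BC12 the H2B sum was at -1.35 and -0.54, the H3 sum without H3C10 at -1.46 in MIA PaCa-2 cells, and the H4 sum without H4C8 at -0.97 in PANC-1 cells. Without members with a long or spliced 3′ end (H1 has none), the sum of all members was -1.31 and -0.76, H2A -1.56 and -0.97, H2B -1.32 and -0.64, H3 -1.64 and -1.85 and H4 -1.26 and -1.15. Without members sharing more than 50% of their windows only H2A moved, to -0.56 and 0.18. With library totals as scale the sums of all members were -1.02 and -0.28 and of H2B -1.17 and -0.34. As medians over the members that passed the filter they were -1.36 and -1.29 for all, -1.73 and -1.92 for H1, -1.47 and -1.81 for H2A and -1.49 and -1.15 for H2B, and in PANC-1 cells -1.36 for H3 and -1.23 for H4. Of the PANC-1 members behind these medians, 5 of H2A and 2 of H3 reached 1 CPM only with PBS. With at least 1 CPM in both PANC-1 libraries the medians were -0.28 for H2A (6 members) and 0.16 for H3 (2 members). For H2B (13 members) and H4 (5 members) they were -1.03 and -1.02. Apart from that H3 median and the H2A sum in PANC-1 cells (0.07, with an interval that included 0), no sum and no called member changed sign under the alternatives run. All 12 members that fell were below 0 in each line. Leaving out a line only returns the value of the other, so it adds no further check.

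Library totals put H2BC15 (-0.96) and H4C5 (-0.95) in PANC-1 cells and H4C5 (-0.99) and H4C8 (-0.98) in MIA PaCa-2 cells inside 2-fold. With no replicate within a line, 1 residual degree of freedom across lines and 12 PANC-1 members that reached 1 CPM with PBS alone, the values of low members carry the widest counting intervals.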
